A study of Mus musculus with 10 samples.

Results

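The genes described here are 8 signalling genes that act next to each other below immune receptors: the Src-family kinases Fyn and Src, the kinases Syk and Btk, the adaptors Lcp2 and Blnk, and the phosphatases Ptpn6 and Ptprc. They were picked by gene name out of 545 endogenous genes on the mouse immune panel of the nCounter, an instrument that counts colour-coded probes bound to their targets without sequencing. Each gene was read by 1 probe, and all 8 were above the negative-control limit (mean plus 2 SD of the lane's negative probes) in 10 of 10 lanes. They belong to the 283 panel genes above that limit in at least 4 lanes, which were tested together. The 8 were picked with results of these same lanes in view, levels and differences between groups included, so their differences are given as a description and no test is claimed for them.

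The cells were hippocampal microglia of 14-day-old male mouse pups of the strain labelled Balbc, separated on a Percoll gradient and then sorted by FACS with markers that no source used here names. The 5 control pups carry the numbers 1, 18, 40, 52 and 69 and the 5 pups of the brief daily separation (BDS) group the numbers 11, 17, 24, 38 and 59, all from different litters. BDS means that pups were taken from the dam for 15 min a day on postnatal days 1 to 21, a schedule still running at day 14; how control pups were handled is not described further. No genotype or transgene is given for either group.

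As background, many activating receptors of myeloid cells and lymphocytes carry tyrosines in their tails or in partner chains. Src-family kinases phosphorylate these tyrosines, Syk docks there and becomes active, and the adaptors Lcp2 (SLP-76) and Blnk (SLP-65) then bring enzymes such as Btk and phospholipase C-gamma together. Ptprc (CD45) removes the inhibitory phosphate from the tail of Src-family kinases, while Ptpn6 (SHP-1) is recruited by inhibitory receptors and switches the cascade down. In microglia this route serves Fc receptors, integrins and Trem2, and CD45 is a surface marker by which microglia are often sorted.

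The promoters of 4 of the 8 genes are shown because their counts differed most between groups: Fyn, Lcp2 and Ptprc, higher in BDS lanes, and Src, lower. Each line holds the 250 bases before the start in the RefSeq annotation of GRCm38.p6, on the gene's strand, with the motif AGGAAGT or its reverse complement ACTTCCT in capitals. The motif is a form of the core that ETS-family factors such as PU.1 bind, and it was chosen after these sequences had been seen. The regions are chr10:39369549-39369798 (plus strand) for Fyn, chr11:34046678-34046927 (plus strand) for Lcp2, chr1:138175306-138175555 (minus strand) for Ptprc and chr2:157424043-157424292 (plus strand) for Src.
Fyn: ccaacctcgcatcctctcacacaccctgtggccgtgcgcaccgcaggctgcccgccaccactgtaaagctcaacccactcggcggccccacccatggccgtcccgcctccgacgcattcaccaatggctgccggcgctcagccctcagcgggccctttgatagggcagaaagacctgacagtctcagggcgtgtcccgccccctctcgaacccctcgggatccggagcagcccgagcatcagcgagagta
Lcp2: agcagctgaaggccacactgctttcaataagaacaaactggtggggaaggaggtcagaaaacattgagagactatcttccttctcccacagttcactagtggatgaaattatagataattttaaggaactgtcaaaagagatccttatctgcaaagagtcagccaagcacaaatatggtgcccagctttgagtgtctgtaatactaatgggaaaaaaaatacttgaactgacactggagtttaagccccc
Ptprc: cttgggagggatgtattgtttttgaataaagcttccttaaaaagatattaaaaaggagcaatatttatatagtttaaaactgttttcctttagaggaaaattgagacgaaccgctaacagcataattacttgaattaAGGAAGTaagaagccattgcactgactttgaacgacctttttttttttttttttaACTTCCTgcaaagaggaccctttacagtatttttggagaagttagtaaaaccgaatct
Src: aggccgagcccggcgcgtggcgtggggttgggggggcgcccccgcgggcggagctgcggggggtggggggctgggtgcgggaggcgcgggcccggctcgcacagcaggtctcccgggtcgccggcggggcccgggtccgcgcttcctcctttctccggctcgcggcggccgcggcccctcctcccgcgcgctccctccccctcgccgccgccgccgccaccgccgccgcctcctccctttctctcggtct
The Ptprc promoter held the motif at 113 and 58 bases before the start, and the windows of Fyn, Lcp2 and Src did not hold these letters. Among the other members, Blnk held it at 202 bases and Ptpn6 at 190 bases before the start, which makes 3 of 8 members. By comparison, 7.77% of 27025 promoters of the same length held it, and so did 14.1% of the 213 tested panel genes whose symbol was found in the table. Base composition differed among the promoters shown: 82.8% of bases were G or C in Src and 67.2% in Fyn, against 41.2% in Lcp2 and 31.6% in Ptprc. A high share was not particular to the Src-family kinases, as Syk stood at 71.6% and Ptpn6 at 63.2%. Btk stood at 49.6% and Blnk at 47.6%. The median was 52.0% over all promoters and 56.4% over the tested panel genes. These are descriptions of sequence at the start taken for each gene. The panel measured no binding and did not show which start a gene used in these cells.

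Lanes differed in depth, and the deeper lanes were mostly BDS lanes. Endogenous counts per lane ranged from 76237 to 802033 in control lanes and from 341679 to 968930 in BDS lanes. Counts were scaled to the geometric mean of 6 housekeeping genes, which was 113 in control 52 and 212 in control 69, the shallowest lanes, and 1254 in BDS 17, the deepest. On the log2 scale this mean was 1.23 higher in BDS lanes. Counts follow 5 rounds of PCR and carry no molecular identifiers. RNA was taken from all sorted cells of a pup together, so fewer cells of a type and less RNA per cell cannot be told apart. Probes differ in how well they capture a target, so a count is compared between lanes for 1 gene, and never between genes.

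Fyn, a Src-family kinase of immune and nerve cells, had higher counts in BDS lanes. Its normalized counts were 94.9, 98.2, 112, 148 and 106 in control pups 1, 18, 40, 52 and 69, and 131, 317, 182, 235 and 206 in BDS pups 11, 17, 24, 38 and 59. Of the 5 BDS lanes, 4 lay above every control lane, and BDS 11 lay below control 52 and above the other control lanes. The means were 214 ± 69.1 (SD, n = 5) in BDS lanes and 112 ± 21.3 (SD, n = 5) in control lanes, a log2 fold change of 0.96 ± 0.25 (SE, edgeR). The overlap came from the shallowest lane: in control 52 the raw Fyn count was 29, only 1.19 times that lane's negative-control limit. The highest value came from the deepest lane, BDS 17. The Fyn log2 fold change was 1.06 without control 52 and 0.78 without BDS 17.

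Src, the kinase the family is named after, had lower counts in BDS lanes. Its normalized counts were 201, 139, 153, 229 and 152 in control pups 1, 18, 40, 52 and 69, and 103, 101, 98.3, 147 and 116 in BDS pups 11, 17, 24, 38 and 59. BDS 38 was the 1 BDS lane inside the control range, and the other 4 lay below every control lane. The means were 113 ± 20.0 (SD, n = 5) in BDS lanes and 175 ± 38.7 (SD, n = 5) in control lanes, a log2 fold change of -0.61 ± 0.22 (SE, edgeR). It turned to 0.72 when lanes were scaled to positive controls alone. The highest control value came from the shallowest lane, control 52, where the raw Src count was 45, only 1.84 times that lane's negative-control limit. Without control 52 the log2 fold change was -0.51, and with lane depth as a covariate it was -0.47 ± 0.24.

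**Figure D1:**
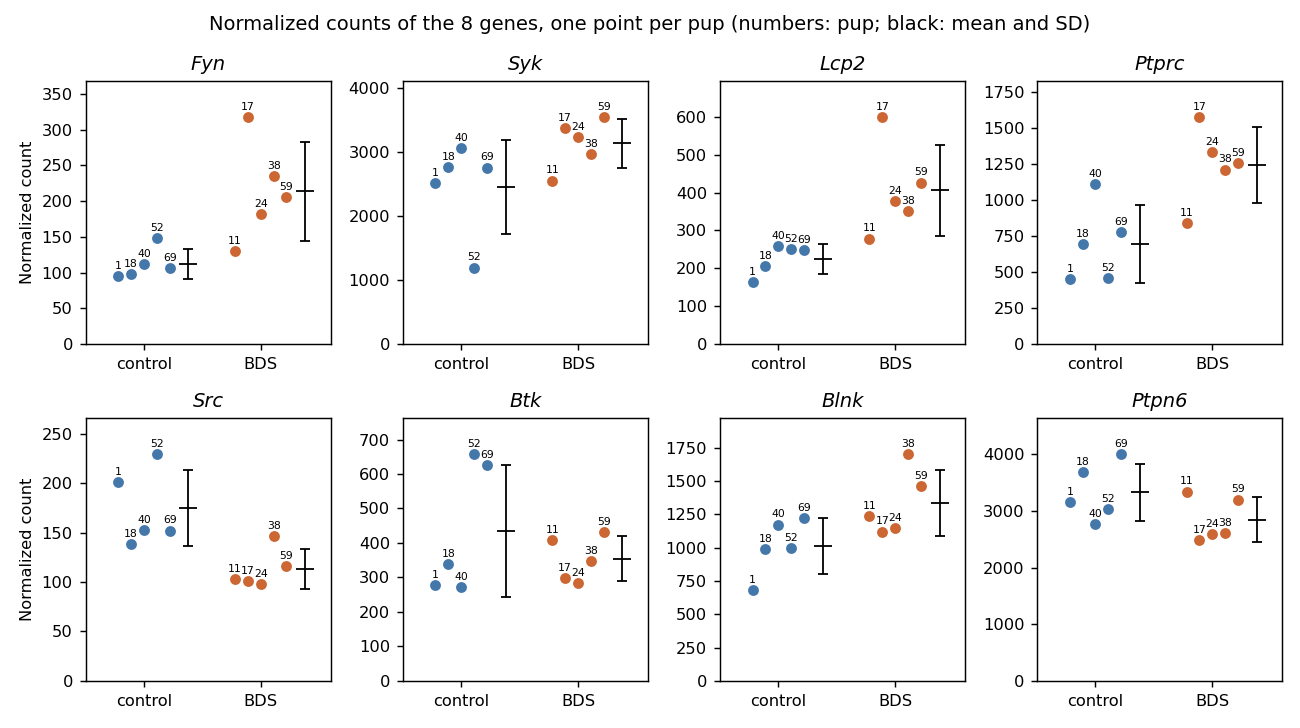
Normalized counts of the 8 genes (vertical axes, from 0) in 5 control and 5 BDS lanes, 1 point per pup with its number; black bars give the mean and SD of each group. Fyn, Lcp2 and Ptprc lie higher in BDS lanes, Src lies lower, and control 52 stands low for Syk and, with control 69, high for Btk.

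The 2 Src-family kinases were also set against each other within single lanes, a comparison in which any scale factor of a lane cancels and which gives their shift relative to each other, not the direction of either. The log2 ratio of raw Fyn to raw Src counts was -1.08, -0.50, -0.45, -0.63 and -0.52 in control pups 1, 18, 40, 52 and 69, and 0.35, 1.65, 0.89, 0.68 and 0.82 in BDS pups 11, 17, 24, 38 and 59. All 5 BDS lanes lay above all 5 control lanes. BDS lanes averaged 0.88 ± 0.48 and control lanes -0.64 ± 0.26 (SD, n = 5 each), a difference of 1.51, or 2.85-fold. Without BDS 17, where the ratio was highest, the difference was 1.32, and without control 52 and control 69 it was 1.55. With lane depth as a covariate it was 1.36. The sign of a single ratio says nothing of which kinase was more abundant, because the probes differ.

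Among all 28 ratios between 2 of the 8 genes, 5 (17.9%) did not overlap between groups, where 4.12% of the 39903 ratios between tested panel genes did not. These 5 set Src against Fyn, Syk, Lcp2, Blnk and Ptprc, so they share the Src values and are not separate observations. In each, the ratio of Src to its partner was lower in BDS lanes than in control lanes. Since the genes were picked with their differences known, nothing is read from that share.

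**Figure D2:**
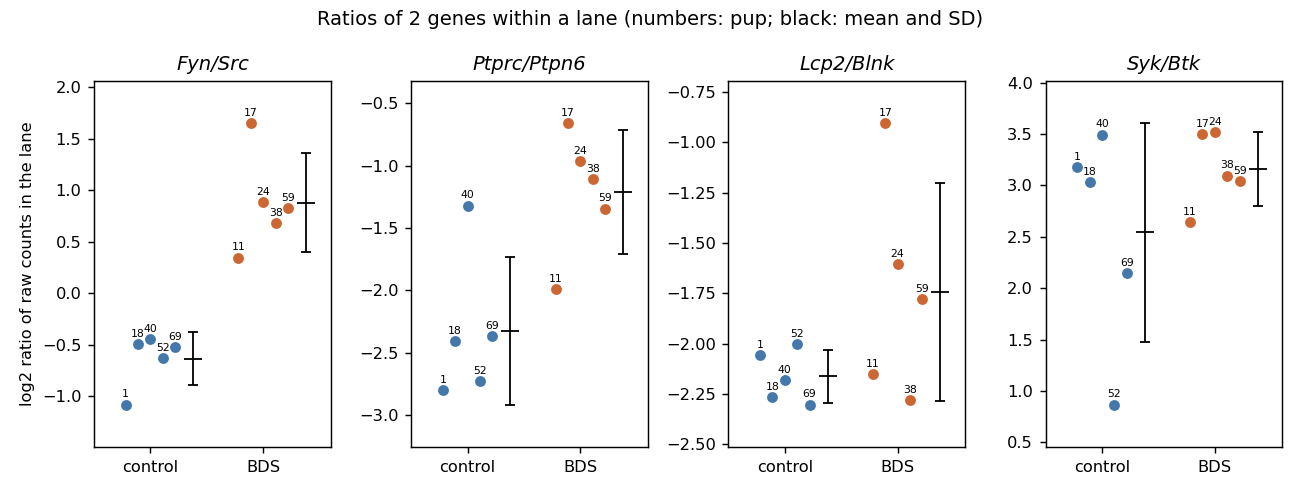
Log2 ratio of the raw counts of 2 genes in the same lane (vertical axes), for 5 control and 5 BDS pups (numbers), with the mean and SD in black. The Fyn to Src ratio runs from -1.08 to -0.45 in control lanes and from 0.35 to 1.65 in BDS lanes, while the other 3 ratios overlap between groups.

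Syk, the kinase that docks on phosphorylated receptor tails, overlapped between groups. Normalized Syk counts were 2522, 2767, 3062, 1198 and 2759 in control pups 1, 18, 40, 52 and 69, and 2557, 3373, 3242, 2970 and 3547 in BDS pups 11, 17, 24, 38 and 59. Apart from control 52, the control lanes lay between 2522 and 3062, next to the lower BDS lanes. The log2 fold change was 0.35 ± 0.23 (SE, edgeR), 0.18 without control 52 and 0.01 once lane depth was a covariate.

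Btk, a kinase of the Tec family that activates phospholipase C-gamma, had its highest normalized counts in the shallowest lanes. Its normalized counts were 279, 339, 272, 658 and 625 in control pups 1, 18, 40, 52 and 69, and 409, 299, 283, 348 and 430 in BDS pups 11, 17, 24, 38 and 59. The 3 deeper control lanes lay below the BDS median, and controls 52 and 69 lay above every BDS lane. The log2 fold change of -0.27 ± 0.27 (SE, edgeR) turned to 0.25 without controls 52 and 69 and to 0.32 with lane depth as a covariate, so Btk has no settled direction here. The Syk to Btk log2 ratio likewise differed by 0.62 between groups with all lanes and by -0.08 without controls 52 and 69.

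Lcp2, the adaptor SLP-76, was the 1 member whose groups did not overlap in normalized counts. They were 164, 206, 259, 250 and 247 in control pups 1, 18, 40, 52 and 69, and 278, 598, 377, 351 and 426 in BDS pups 11, 17, 24, 38 and 59. Every BDS lane lay above every control lane, and BDS 11 at 278 stood just above control 40 at 259. The means were 406 ± 120 (SD, n = 5) in BDS lanes and 225 ± 39.9 (SD, n = 5) in control lanes, a log2 fold change of 0.86 ± 0.23 (SE, edgeR). With 1 pup left out it ran from 0.68, without BDS 17, the highest lane, to 0.97, without BDS 11. Over the panel 3.53% of genes lay wholly above and 1.06% wholly below the control lanes.

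Blnk, the related adaptor SLP-65 known best from B cells, differed less. Lanes gave normalized Blnk counts of 681, 992, 1174, 1000 and 1220 in control pups 1, 18, 40, 52 and 69, and 1235, 1120, 1148, 1703 and 1462 in BDS pups 11, 17, 24, 38 and 59. BDS 17 and BDS 24 lay inside the control range, and the other 3 BDS lanes lay above it. The log2 fold change was 0.40 ± 0.20 (SE, edgeR). The Lcp2 to Blnk log2 ratio had an SD of 0.13 in control lanes and 0.54 in BDS lanes. It was -0.90 in BDS 17, while BDS 11 at -2.15 and BDS 38 at -2.28 lay inside the control range.

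Ptprc, the receptor-type phosphatase CD45, was higher in BDS lanes with 1 overlap. Normalized Ptprc counts were 453, 693, 1111, 459 and 777 in control pups 1, 18, 40, 52 and 69, and 843, 1576, 1333, 1212 and 1260 in BDS pups 11, 17, 24, 38 and 59. Control 40, the deepest control lane, lay above BDS 11, the shallowest BDS lane. The means were 1245 ± 265 (SD, n = 5) in BDS lanes and 698 ± 271 (SD, n = 5) in control lanes, a log2 fold change of 0.83 ± 0.26 (SE, edgeR). With lane depth as a covariate it was 0.47 ± 0.25. The probe counts all Ptprc message it binds, and its splice forms were not told apart here.

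Ptpn6, the cytoplasmic phosphatase SHP-1, varied little. For Ptpn6 the lanes gave normalized counts of 3153, 3680.5, 2773, 3040 and 4006 in control pups 1, 18, 40, 52 and 69, and 3342, 2490, 2596, 2612 and 3200 in BDS pups 11, 17, 24, 38 and 59. BDS 17, 24 and 38 lay below every control lane, and BDS 11 and 59 lay inside the control range. The log2 fold change was -0.23 ± 0.17 (SE, edgeR), and over all 10 lanes the highest value was 1.61 times the lowest, the narrowest range of the 8 genes. The Ptprc to Ptpn6 log2 ratio averaged -2.32 ± 0.59 over the 5 control pups and -1.21 ± 0.50 over the 5 BDS pups (SD). BDS 11 at -1.99 and BDS 59 at -1.34 overlapped with control 40 at -1.32.

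Across the 8 genes, 5 had a positive log2 fold change and 3 a negative one, and 55.8% of the 283 tested genes were on the positive side. Their median was 0.37, against 0.09 over all 283. The panel's split depends on scaling: 158 genes were positive here, but 134 by TMM or by median-of-ratios scaling, 132 on the authors' values, 131 when Sdha was dropped and 281 with positive controls alone, where all 8 members were positive too. At an adjusted p of 0.05 edgeR's quasi-likelihood test called 0 of the 8, with 0% of the panel called and a smallest adjusted p of 0.0642. At an unadjusted p under 0.05 it counted 4 of the 8, Fyn, Lcp2 and Ptprc on the higher side and Src on the lower, beside 28.3% of the panel (19.4% higher, 8.83% lower). That panel split of 55 higher and 25 lower became 36 and 39 with TMM, 25 and 49 when Sdha was dropped from the scaling, 33 and 40 by median-of-ratios scaling, and 24 and 41 on the authors' values with limma. DESeq2 with the same scaling put Fyn, Lcp2 and Ptprc below an adjusted p of 0.05, beside 8.83% of the panel, and limma put 0 of the 283 genes there. As the members were picked with this contrast known, nothing is read from these counts.

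**Figure D3:**
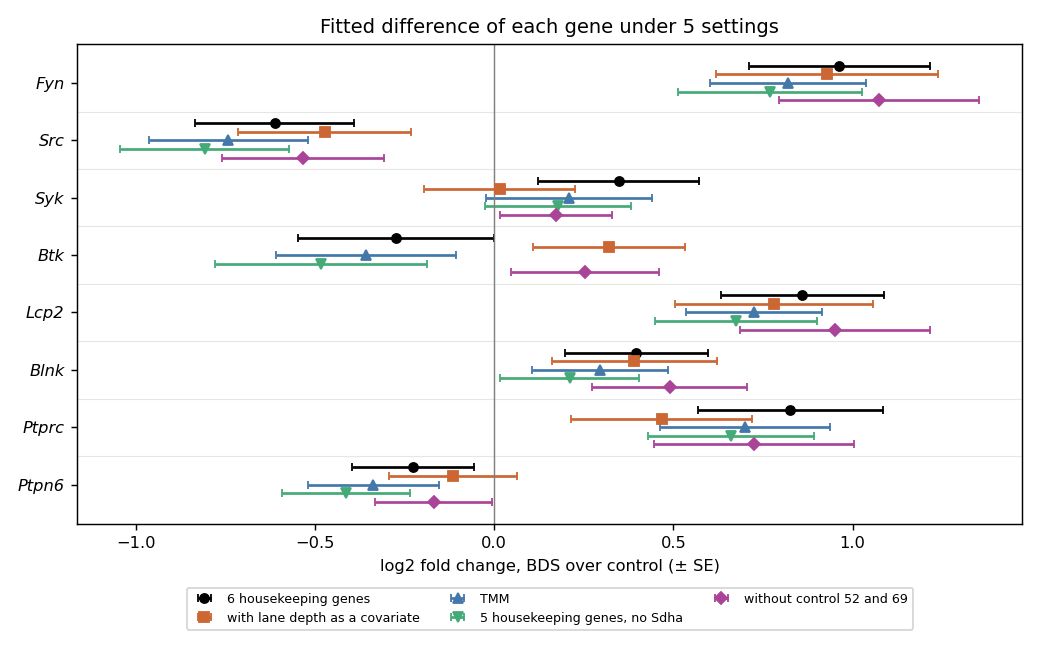
Fitted log2 fold change of BDS over control with its SE (horizontal axis) for the 8 genes under 5 settings, with positive values higher in BDS. Fyn, Lcp2, Blnk and Ptprc stay to the right of 0 and Src and Ptpn6 to the left in all 5, while Btk lies at -0.27 with all lanes and at 0.25 without controls 52 and 69.

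The genes also differed in how raw counts followed lane depth. Between the shallowest and deepest lanes the housekeeping mean spanned 11.1-fold. Raw counts spanned 38.1-fold for Ptprc, 31.2-fold for Syk, 26.6-fold for Lcp2 and 23.8-fold for Fyn, but 6.29-fold for Src and 5.20-fold for Btk. The median span over all 283 tested genes was 14.8-fold, and Blnk spanned 16.8-fold and Ptpn6 9.09-fold. As BDS lanes were deeper and counts were divided by the housekeeping mean, a wide span in part restates a positive fold change. The part of depth in the differences was not tested beyond the covariate.

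Lanes of like depth were then set side by side. Control 40, with a housekeeping mean of 1060, lies between BDS 24 at 997 and BDS 38 at 1113. Fyn was at 112 in control 40 against 182 and 235, and Lcp2 at 259 against 377 and 351. Src was at 153 against 98.3 and 147, and Ptprc at 1111 against 1333 and 1212. Syk was at 3062 against 3242 and 2970, and Btk at 272 against 283 and 348. Blnk was at 1174 against 1148 and 1703, and Ptpn6 at 2773 against 2596 and 2612. For Syk and Blnk control 40 thus lay between the 2 BDS lanes, and for Btk it lay below both. Control 1 at 461 and BDS 11 at 477 form the other close pair. There Fyn was at 94.9 and 131, Lcp2 at 164 and 278, Src at 201 and 103, and Ptprc at 453 and 843. Blnk was at 681 and 1235 and Btk at 279 and 409. Syk, at 2522 and 2557, and Ptpn6, at 3153 and 3342, were nearly level, and the values of Btk and Ptpn6 were higher in the BDS lane, against the sign of their fold changes over all lanes.

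**Figure D4:**
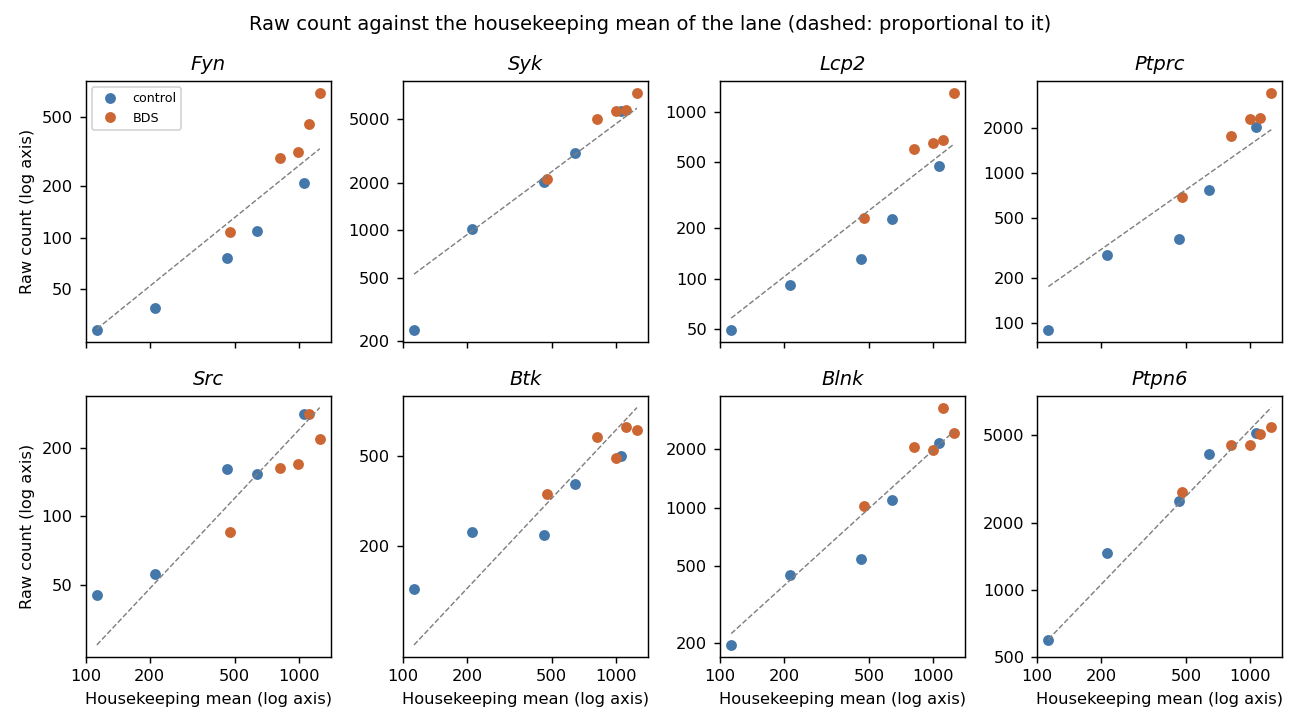
Raw count of each gene (vertical log axis) against the housekeeping mean of the lane (horizontal log axis), with 5 control and 5 BDS lanes; the dashed line is a count proportional to the housekeeping mean. At like depth, BDS lanes lie above control lanes for Fyn and Lcp2 and 4 of 5 BDS lanes lie below the line for Src. Btk lies furthest above the line in the 2 shallowest lanes.

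Likeness between genes was measured as the root-mean-square difference of log2 normalized counts over the 10 lanes after centring each gene on its mean. Fyn was nearest to Cd86, a co-stimulatory ligand (0.17), to Casp8, an apoptosis protease (0.19), and to Lcp2 (0.20), where the median distance from Fyn to the 282 other tested genes was 0.61. Lcp2 was nearest to Casp8 and Casp2 (0.16 each) and then to Fyn, so Fyn and Lcp2 were each among the other's 3 nearest genes. Within the 8 genes that pair was also the closest, followed by Lcp2 and Ptprc at 0.31. The distance includes the difference between groups, which was known when the members were picked, so like fold changes bring genes nearer. Cd86, Casp8 and Casp2 had log2 fold changes of 0.88, 0.83 and 0.82, beside 0.96 for Fyn and 0.86 for Lcp2. The closeness is therefore not a separate observation.

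Src was nearest to Hif1a, a transcription factor of the oxygen response (0.22), to the receptor Tgfbr2 (0.23) and to Il10ra (0.26). Syk was nearest to the kinase Map4k4 (0.13), to Cd164 (0.13) and to Pml (0.16). Btk was nearest to Batf3 (0.21), Rae1 (0.23) and Ly86 (0.24). For Blnk the nearest gene was Trem2, a phagocytic receptor (0.15), followed by Stat5b (0.15) and Ccr2 (0.18). Ptpn6 was nearest to C1qbp (0.15), Traf3 (0.16) and Tal1 (0.16), and Ptprc to Itgb1 (0.24), Il10rb (0.25) and Psmb7 (0.25). All these profiles share the lanes, their depth and their scaling, and each holds the gene's difference between groups.

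Upstream of the kinases, 11 of 17 activating receptors and signalling chains on the panel were tested, 4 with positive and 7 with negative values and a median log2 fold change of -0.14. None passed edgeR's adjusted p of 0.05. At an unadjusted p under 0.05 there were 2 higher (Fcgr1 and Itgb1) and 2 lower (Fcgr3 and Itgam). Over the 283 tested genes that threshold took in 28.3% (19.4% higher, 8.83% lower). Counts at this threshold are therefore not read as results about any list. The largest value was that of Fcgr3, named after its value was seen, at -2.12 ± 0.53. Its normalized counts ran from 80.5 to 949 in control and from 51.0 to 98.0 in BDS lanes. Raw Fcgr3 counts ran only from 81 to 204, while the housekeeping mean spanned 11.1-fold. Counts so flat over depth turn high in shallow lanes once scaled, and the shallowest lanes were control lanes. The part of depth in the Fcgr3 value was not tested. Itgb1 was at 0.65 ± 0.19. Itgam, an integrin chain with a Syk-dependent route, was at -0.56 ± 0.18 (SE, n = 5 per group), Trem2 at 0.28 ± 0.18 and Fcgr1, the high-affinity IgG receptor, at 0.50 ± 0.21. Tyrobp and Fcer1g, the partner chains through which such receptors recruit Syk, were named after their values were seen and stood at -0.23 ± 0.29 and -0.21 ± 0.21. Of 12 inhibitory receptors on the panel 5 were tested, 2 with positive and 3 with negative values, 0 past the adjusted threshold and 2 higher and 1 lower at an unadjusted p under 0.05, with a median of -0.05. Fcgr2b, the inhibitory Fc receptor, was at 0.79 ± 0.31, Pecam1 at -0.56 ± 0.24 and Ceacam1 at -0.05 ± 0.24.

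Downstream, 6 of 10 signalling genes on the panel were tested, 5 with positive and 1 with negative values and a median of 0.24. None passed edgeR's adjusted threshold, and 1 was higher at an unadjusted p under 0.05, beside 19.4% of the panel. The kinase Prkcd was at 0.25 ± 0.16, the adaptor Card9, which links Syk to NF-kB, at 0.17 ± 0.24 and the transcription factor Nfatc2 at 0.23 ± 0.22. Of 4 other tyrosine kinases on the panel, Lck and Zap70 were not above the limit in enough lanes, and Abl1 (0.30 ± 0.40) and Ptk2 (0.46 ± 0.33) were tested with 0 passing at either threshold. The other phosphatases Ptpn2 (-0.05 ± 0.25) and Ptpn22 (0.25 ± 0.29) did not pass either threshold. These lists were chosen with earlier results of these data known.

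All 9 of 9 microglial markers were above the limit in 10 lanes, though detection alone does not settle the label of the sorted cells. Their summed normalized counts were 117380 to 172523 in control and 121005 to 145777 in BDS lanes. The markers differed in sign, 6 with positive and 3 with negative log2 fold changes. At an unadjusted p under 0.05 by edgeR, beside 19.4% of the panel higher and 8.83% lower, 1 marker was higher and 2 were lower. These, named after their values were seen, were C1qa (0.76 ± 0.20), Cx3cr1 (-0.63 ± 0.23) and Itgam (-0.56 ± 0.18). Because Blnk, Btk, Lcp2 and Ptprc are also genes of lymphocytes, markers of other cells were set beside them. Of 6 B cell markers, Cd79b was above the limit in 10 lanes and Cd79a in 2, while Ms4a1, Pax5, Cr2 and Cd22 were above it in 0 lanes. Their summed normalized counts ran from 166 to 321 in control and from 174 to 265 in BDS lanes. Of 10 T cell markers 0 were above the limit in 4 lanes, and Cd3d, Cd3e, Cd247, Zap70 and Cd28 were above it in 0 lanes. Their sums ran from 84.8 to 372 in control and from 62.4 to 96.8 in BDS lanes. These are counts near background divided by the lane's scale factor, and the highest sum was that of control 52, whose factor of 0.196 was the smallest.

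Of 5 NK cell markers on the panel 2 were above the limit in at least 4 lanes, with sums of 106 to 128 in control and 90.7 to 130 in BDS lanes. Of 5 neutrophil markers only Csf3r, which had 645 raw counts or more in every lane, passed that limit, and S100a8 and S100a9 were above it in 1 lane each. The neutrophil sums ran from 1525 to 3453 in control and from 1067 to 1744 in BDS lanes. These sums were mostly Csf3r, with a mean of 1745 over all lanes and a log2 fold change of -0.77 ± 0.24 (SE, edgeR). S100a8, S100a9, Cxcr2 and Camp were each above the limit in at most 3 lanes. A difference in neutrophil RNA therefore cannot be read from the sums. Of 3 monocyte markers Ccr2 alone passed, with sums of 65.0 to 105 and 100.03 to 148. All 3 endothelial markers on the panel passed, with sums of 714 to 1674 in control and 980 to 1070 in BDS lanes. Their values differed in sign: Cdh5, named after its values were seen, had a log2 fold change of 0.97 ± 0.37 (SE, n = 5 per group), Pecam1 one of -0.56 ± 0.24 and Cd34 one of -0.42 ± 0.24. The part of endothelial or monocyte RNA in the differences of the 8 genes was not tested.

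The authors' deposited table gives ratios of the BDS mean to the control mean on its own scaling. In the authors' deposited table these are 1.66 for Fyn, 1.59 for Ptprc, 1.58 for Lcp2, 1.15 for Blnk and 1.13 for Syk. For the genes below 1, the authors' deposited table gives 0.75 for Ptpn6, 0.70 for Btk and 0.56 for Src. The 5 genes above 1 and the 3 below 1 are those with positive and negative log2 fold changes here. That table also puts each of the 8 above background in 100% of samples.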

How the data were processed

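Barcodes were counted on amplified cDNA (2 ng of RNA, 5 rounds of PCR), per the labels' protocols; no source used here names the counting software. The deposited raw table holds whole-number counts per probe for 545 endogenous genes, 14 housekeeping genes, 8 negative and 6 positive control probes. The authors' second table holds scores, counts scaled to positive controls and housekeeping genes per the series' design text and rounded. Per the file headers it also gives the percent of samples above background, a fold (ratio of means) and a p-value by t-test, which was not used here.

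Raw counts were divided by the lane's geometric mean of Alas1, Gapdh, Oaz1, Polr1b, Sdha and Tbp, the 6 genes the design text names, and rescaled to normalized counts. The design text speaks of 5 such genes while naming 6, so the authors' set is not certain. With 5 genes, leaving out Sdha, the log2 fold change was 0.77 for Fyn and -0.81 for Src. Raw counts of the genes that 40% of lanes or more had above their negative-control limit were fitted in R 4.3.3 by the two-sided quasi-likelihood test of edgeR 4.0.16 without covariates, with Benjamini-Hochberg adjustment over 283 genes. The standard error of a log2 fold change was its size divided by the root of the F statistic. Limma 3.58.1 and DESeq2 1.42.0 served as alternatives. A pseudocount of 1 was used on log2 values, except in ratios. No pair of lanes in a group agreed within sampling noise (chi-square per degree of freedom 13.7 or more). Each pup had its own litter, and the spread behind a p-value is that among pups.

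The members, gene lists and marker lists were chosen with earlier results of these data known. Besides the members, the 3 genes of each pathway list with the highest mean count and the 3 genes most like each member were named. A further gene of the B cell list is not reported here.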

Additional observations from a re-analysis of the deposited data

Results flagged for a closer look

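In 24 groups of 5 values (8 genes and 4 ratios, 2 groups each), 1 value just met Dixon's criterion. Its ratio was 0.7103 against a critical value of 0.71. Chance alone meets the criterion in about 1 group in 20, so 1 flag in 24 groups is about what chance gives. Syk stood at 1198 normalized counts in control 52, against 2522 or more in the other control lanes. Control 52 was the shallowest lane, and the raw Syk count there was 235, which is 9.63 times the lane's negative-control limit. The same lane was highest of the controls for Fyn, Src and Btk. The cause was not tested.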

How the results depend on the processing

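No paired analysis was possible because the pup numbers of the 2 groups share no value. Fyn, Lcp2, Blnk, Syk and Ptprc kept a positive and Src and Ptpn6 a negative log2 fold change under all 29 alternatives, except that Src and Ptpn6 turned with positive controls alone. Syk was at only 0.01 ± 0.21 with lane depth as a covariate, which gives no direction. The alternatives reuse the same lanes, so a kept sign is not a separate observation. The Fyn to Src ratio difference cannot move with scaling, filter or test; under those alternatives that could move it (lanes left out, background subtraction, the covariate and the authors' values) it was 1.32 to 1.65. With positive controls alone, which raised the median of the panel from 0.09 to 1.35, Src was at 0.72, Btk at 1.21, Ptpn6 at 0.99, Itgam at 0.60, Pecam1 at 0.53, Ceacam1 at 0.99 and Ptpn2 at 1.11. That scaling put 8 members and 281 of 283 panel genes higher, with 14 panel genes past the adjusted threshold and 128 past the unadjusted one. Btk turned to 0.32 with lane depth as a covariate, 0.25 without controls 52 and 69, and 0.31 without these and BDS 17, where the housekeeping gap between groups differs too. Lane depth as a covariate left 36 panel genes and 2 members (Fyn and Lcp2) at an unadjusted p under 0.05.

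Panel genes past an adjusted p of 0.05 were 0 by edgeR, 25 by DESeq2 (Fyn, Lcp2 and Ptprc among them), and, again by edgeR, 10 among genes above the limit in all 10 lanes, 12 without Gapdh and 15 without Polr1b (Fyn and Lcp2 among each), and Fyn was among the 14 with positive controls alone. Leaving out 1 pup gave 0 to 48 such genes (48 without control 40, 19 without BDS 11, each with Fyn, Lcp2 and Ptprc) and 45 to 108 at an unadjusted p, with 45 without BDS 17. No filter on low counts gave 139 at an unadjusted p, with 545 genes tested. Near 0, Ptpn2 turned to 0.0187 with all 14 housekeeping genes, 0.0524 after background subtraction, 0.0104 without Gapdh, 0.0381 without Polr1b and 0.00419 without Tbp, and was -0.20 to 0.0437 with 1 pup left out. Ceacam1 turned to 0.0296 with limma, 0.0183 without Gapdh and 0.0310 without Polr1b, and was -0.22 to 0.0670 with 1 pup left out. Card9 turned to -0.00393 without Sdha. The cause of these turns was not tested. The settings that left out a housekeeping gene other than Sdha, or controls 52 and 69 with BDS 17, were chosen after seeing the data. Raw Fyn and Src counts of 29 and 45 in control 52 limit what that lane can show.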
